A study of Homo sapiens with 12 samples.

Results

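The genes described here are the TRIM genes, read as every probe whose symbol in the deposited signal table starts with TRIM and a digit, together with SPRYD5, the older name of TRIM51. That rule took 131 of 47323 probes and 70 of the 34330 genes named on the arrays. It uses the name alone, so relatives filed under other names (MID1, PML, TRIML1 or a bare LOC number) are not members and are given separately. The cells were LNCaP, a line from human prostate cancer that is androgen-responsive, and they were profiled on 12 expression bead arrays in 4 groups of 3. All cells were kept in medium without phenol red that held 2% steroid-deprived serum. They received a control siRNA or an siRNA against ERRγ (estrogen-related receptor gamma, an orphan nuclear receptor encoded by ESRRG). After 48 h they were replated and given 10 nM R1881, a synthetic androgen, or ethanol vehicle for 72 h, and medium and treatment were renewed after 48 h. Each siRNA was thus combined with each treatment. The labels call the samples triplicates without naming separate cultures. The p-values therefore rest on the spread among triplicates, and that spread may be purely technical.

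TRIM proteins share a tripartite motif: a RING finger, which in most of them acts as a ubiquitin E3 ligase, then 1 or 2 B-box zinc fingers and a coiled coil through which they pair. The part after the coiled coil sets them apart, as a PRY-SPRY domain in most, a PHD finger and bromodomain in the chromatin regulators, and NHL repeats, a filamin-type repeat or a COS box in others. They act in antiviral defence, transcription, protein turnover and the cytoskeleton, and some bind nuclear receptors, among them the androgen receptor in prostate cells. In primates a branch of the family has multiplied on chromosome 11 into many related copies and pseudogenes, to which TRIM48, TRIM49, TRIM51, TRIM53, TRIM64 and TRIM77 belong.

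Between 18695 and 20533 probes were detected per array (detection p-value under 0.05), and 17121 genes with a probe detected on at least 3 of the 12 arrays were tested. Of 9 luminal prostate markers, 8 were detected on all 12 arrays and KLK2 on 6. No basal, leukocyte or endothelial marker was detected on all arrays, and of the 5 stromal markers this held for VIM and COL1A1. The 3 probes for ESRRG, the gene the siRNA targets, were not detected on any array (raw signals of 86.04 to 99.9), so the knockdown could not be checked from these data. The androgen targets KLK3 and FKBP5 showed that R1881 acted in both siRNA arms: KLK3 changed by 5.47 ± 0.14 on the log2 scale (SE, n = 3 arrays per group) with control siRNA and by 5.20 ± 0.14 with ERRγ siRNA, and FKBP5 by 4.08 ± 0.09 and 3.82 ± 0.09.

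Of the 70 TRIM genes, 44 had a detected probe and were tested, 31 of them with a probe detected on all 12 arrays. The 26 genes that were not tested included all muscle-linked members but TRIM32 (TRIM54, TRIM55, TRIM63 and TRIM72), the interferon-linked TRIM6, TRIM22, TRIM31, TRIM34 and TRIM69, and TRIM2 and TRIM71 among the NHL-repeat members. For 46 of the 131 probes the signal was at background on every array, which sets a bound and does not show that a gene was off.

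The sequences before TRIM48 and TRIM51 are shown because these genes gave the largest responses of the family and belong to the same branch. Each is the 250 bases upstream of the annotated start in RefSeq on GRCh38.p14, plus strand, 5′ to 3′: chr11:55261905-55262154 for TRIM48 and chr11:55883047-55883296 for TRIM51. The window of TRIM49D2, chr11:89923814-89924063, is given as a further relative, for which a probe outside the naming rule was measured. In the TRIM48 and TRIM51 lines, capitals mark runs of 10 or more bases that the pair shares, and in the TRIM49D2 line they mark such runs shared with TRIM48.
TRIM48: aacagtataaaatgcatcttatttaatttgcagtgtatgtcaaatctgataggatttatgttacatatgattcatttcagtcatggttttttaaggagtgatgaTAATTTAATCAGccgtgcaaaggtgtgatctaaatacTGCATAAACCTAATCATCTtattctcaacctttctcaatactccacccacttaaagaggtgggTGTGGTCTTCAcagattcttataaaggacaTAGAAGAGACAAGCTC
TRIM51: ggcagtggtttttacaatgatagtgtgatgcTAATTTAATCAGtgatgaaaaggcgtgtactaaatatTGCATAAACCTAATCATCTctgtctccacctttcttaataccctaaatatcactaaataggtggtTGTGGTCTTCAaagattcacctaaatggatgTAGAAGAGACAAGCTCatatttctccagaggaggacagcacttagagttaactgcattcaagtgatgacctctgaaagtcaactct
TRIM49D2: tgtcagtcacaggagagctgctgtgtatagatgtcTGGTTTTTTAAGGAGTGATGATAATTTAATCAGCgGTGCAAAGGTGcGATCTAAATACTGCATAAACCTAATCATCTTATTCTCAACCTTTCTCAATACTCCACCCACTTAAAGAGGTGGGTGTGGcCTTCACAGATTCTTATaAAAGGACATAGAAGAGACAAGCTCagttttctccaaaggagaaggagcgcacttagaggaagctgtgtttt
TRIM48 and TRIM51 were identical at 82.9% of 170 aligned bases, and TRIM48 and TRIM49D2 at 93.6% of 202. The longest run common to TRIM48 and TRIM51, TGCATAAACCTAATCATCT (19 bases, searched on both strands), was held by the windows of 6 of 27305 genes (0.022%), counting 300 bases per window. All 6 were TRIM genes on chromosome 11: TRIM48, TRIM49B, TRIM49D1, TRIM49D2, TRIM51 and TRIM51G. Among relatives without the run, TRIM49 matched TRIM48 at 64% of 211 aligned bases and TRIM64 at 70.5% of 210. As a share of the whole 250-base window, the bases identical to TRIM48 were 56.4% for TRIM51 and 75.6% for TRIM49D2. They were 59.2% for TRIM64, 56% for TRIM77 and 54% for TRIM49, so by this measure TRIM51 was no closer to TRIM48 than TRIM64 was. The hexamer AGAACA, to which the androgen receptor is known to bind, searched on both strands, was in the windows of 4790 genes (17.5%) and of 9 of the 63 TRIM genes with a window, not in those of TRIM48 or TRIM51. These matches describe letters in a short window. Among the 27 relatives listed on chromosome 11, a single transcribed pseudogene, TRIM51HP, lay between TRIM48 and TRIM51.

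TRIM51, TRIM48 and TRIM53 went from at or near background to clearly detected signals when R1881 was added, with either siRNA, and gave the 3 largest changes of the family. The raw signal of TRIM51 was 149, 126 and 130.1 on the 3 control siRNA arrays in vehicle, and 1907, 1763 and 1653 with R1881. With ERRγ siRNA it was 127, 136 and 145 in vehicle, and 2291, 1768 and 1756 with R1881. Every R1881 array lay far above every vehicle array, and the vehicle arrays of both siRNAs overlapped, as did the R1881 arrays. On the normalized log2 scale, TRIM51 rose by 4.83 ± 0.14 with control siRNA (28.4-fold, adjusted p = 9.9e-12) and by 4.85 ± 0.14 with ERRγ siRNA (28.9-fold, adjusted p = 9.17e-12). These were the 4th highest changes of the 17121 genes with either siRNA. In a bulk sample, more cells that express a gene and more RNA per cell cannot be told apart.

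TRIM48 gave raw signals of 101.2, 106 and 100.6 in vehicle and 624, 643 and 549 with R1881 under control siRNA. Under ERRγ siRNA the signals were 98.5, 98.1 and 101.7 in vehicle and 704, 586 and 543 with R1881. The treated and untreated arrays were again fully apart. TRIM48 was detected on all 3 control siRNA vehicle arrays and rose there by 4.22 ± 0.14 (18.7-fold, adjusted p = 3.17e-11). On the ERRγ siRNA vehicle arrays it was not well above background, so its rise is given as a bound. With the processing used here the rise was at least 20.2-fold. The adjusted p of the fitted change was 1.87e-11 (limma). For such bounds the dim side was set, array by array, to the lowest signal among detected probes. They depend on the background correction and normalization. Over the alternatives, the fitted change of TRIM48 with ERRγ siRNA ranged from 1.70 to 4.51 on the log2 scale.

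TRIM53 is listed in RefSeq as the transcribed pseudogene TRIM53AP, also on chromosome 11. Its brightest probe read 95.1, 91.1 and 95.7 in vehicle and 302, 287 and 272 with R1881 under control siRNA, and 95.4, 92.2 and 96.2 against 418, 325 and 330.3 under ERRγ siRNA. The probe was undetected on all 6 vehicle arrays and detected on all 6 R1881 arrays. It passed the filter on dim probes through its R1881 arrays alone and so had to differ. With the processing used here, the rise was at least 8.72-fold with control siRNA and at least 10.7-fold with ERRγ siRNA. Over the alternatives, its fitted log2 change ranged from 0.90 to 3.38 with control siRNA and from 1.09 to 3.80 with ERRγ siRNA. A second probe, with 158.98, 152 and 153 and then 193, 178 and 167 on the R1881 arrays, rose at least 3.26-fold and 4.01-fold, and the remaining probe was detected on no array.

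The other tested relatives were not called. TRIM49 read 93.4 to 110.3 across its 6 control siRNA arrays and changed by -0.15 (95% interval -0.43 to 0.14) with control siRNA and by -0.17 with ERRγ siRNA. TRIM43, on another chromosome, changed by -0.21 (-0.56 to 0.14) and -0.19. Both probes sat close to background on all arrays, so a small change could not have been seen. TRIM64 was detected on no array. Outside the naming rule, a probe filed under a LOC number and paired by its RefSeq accession with TRIM49D2, whose upstream window is printed above, read 96.2, 85.9 and 90.4 in vehicle and 358, 387 and 345 with R1881 under control siRNA. It was undetected on all vehicle arrays. With the processing used here it rose at least 11.8-fold with control siRNA and at least 11.7-fold with ERRγ siRNA. No probe sequences were used here, and it was not tested whether the probes tell these related copies apart. The signals of TRIM48, TRIM51, TRIM53 and TRIM49D2 may therefore share transcripts.

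**Figure D1:**
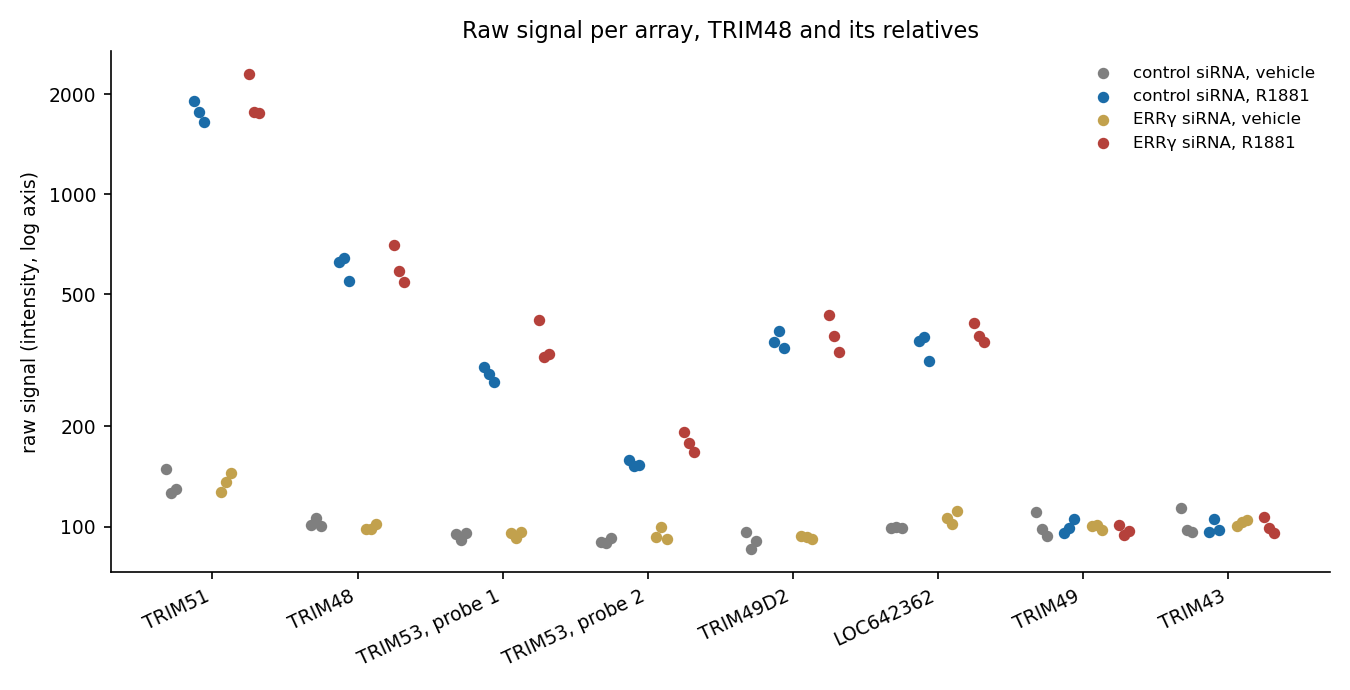
Raw signal (intensity, log axis) on each of the 12 arrays for TRIM51, TRIM48, 2 probes of TRIM53, 2 probes outside the naming rule (TRIM49D2 and LOC642362), TRIM49 and TRIM43, with 1 point per array coloured by group. The first 6 probes are near background in vehicle and higher on every R1881 array, from 152 for the second TRIM53 probe to 2291 for TRIM51, while TRIM49 and TRIM43 stay near background. Levels of different probes are not comparable.

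Across the family, 15 of the 44 tested genes were called higher with R1881 under control siRNA (adjusted p under 0.05, limma with Benjamini-Hochberg adjustment over 17121 genes, two-sided) and 7 lower, while 22 were not called. Over all genes 17.7% were called higher and 22.3% lower, 40% in all. Under ERRγ siRNA, 13 members were called higher and 9 lower, against 16.7% and 20.4% of all genes, or 37.1% in all. A response to R1881 was thus common on these arrays, and a called TRIM gene is in itself no sign of anything particular to the family. At least 2-fold changes were rarer: 4 members rose (TRIM51, TRIM48, TRIM53 and TRIM36) and 2 fell (TRIM45 and TRIM68) by that much with either siRNA, against 2.98% of genes up and 3.14% down with control siRNA, and 2.75% and 2.87% with ERRγ siRNA. In the authors' normalized table, where the same fit was run, several of these changes were under 2-fold though still called: TRIM36 by 0.29 and 0.33, TRIM45 by -0.43 and -0.40, and TRIM53 by 0.90 with control siRNA. TRIM68 with ERRγ siRNA ranged from -1.09 to -0.81 over the alternatives. TRIM48 and TRIM51 were named from the start because their response was known, so these counts are a description. The median change of the members was 0.01 and 0.10 on the log2 scale with control and ERRγ siRNA, against -0.03 and -0.02 over all genes. With both siRNAs 16 members were called, 10 higher and 6 lower. The 2 comparisons have separate vehicle arrays but share the same normalization and estimate of the spread. Another 6 were called with control siRNA alone and 6 with ERRγ siRNA alone, but no TRIM gene had a called difference between its responses under the siRNAs. The matching shares over all genes were not counted, so these overlaps are a description.

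**Figure D2:**
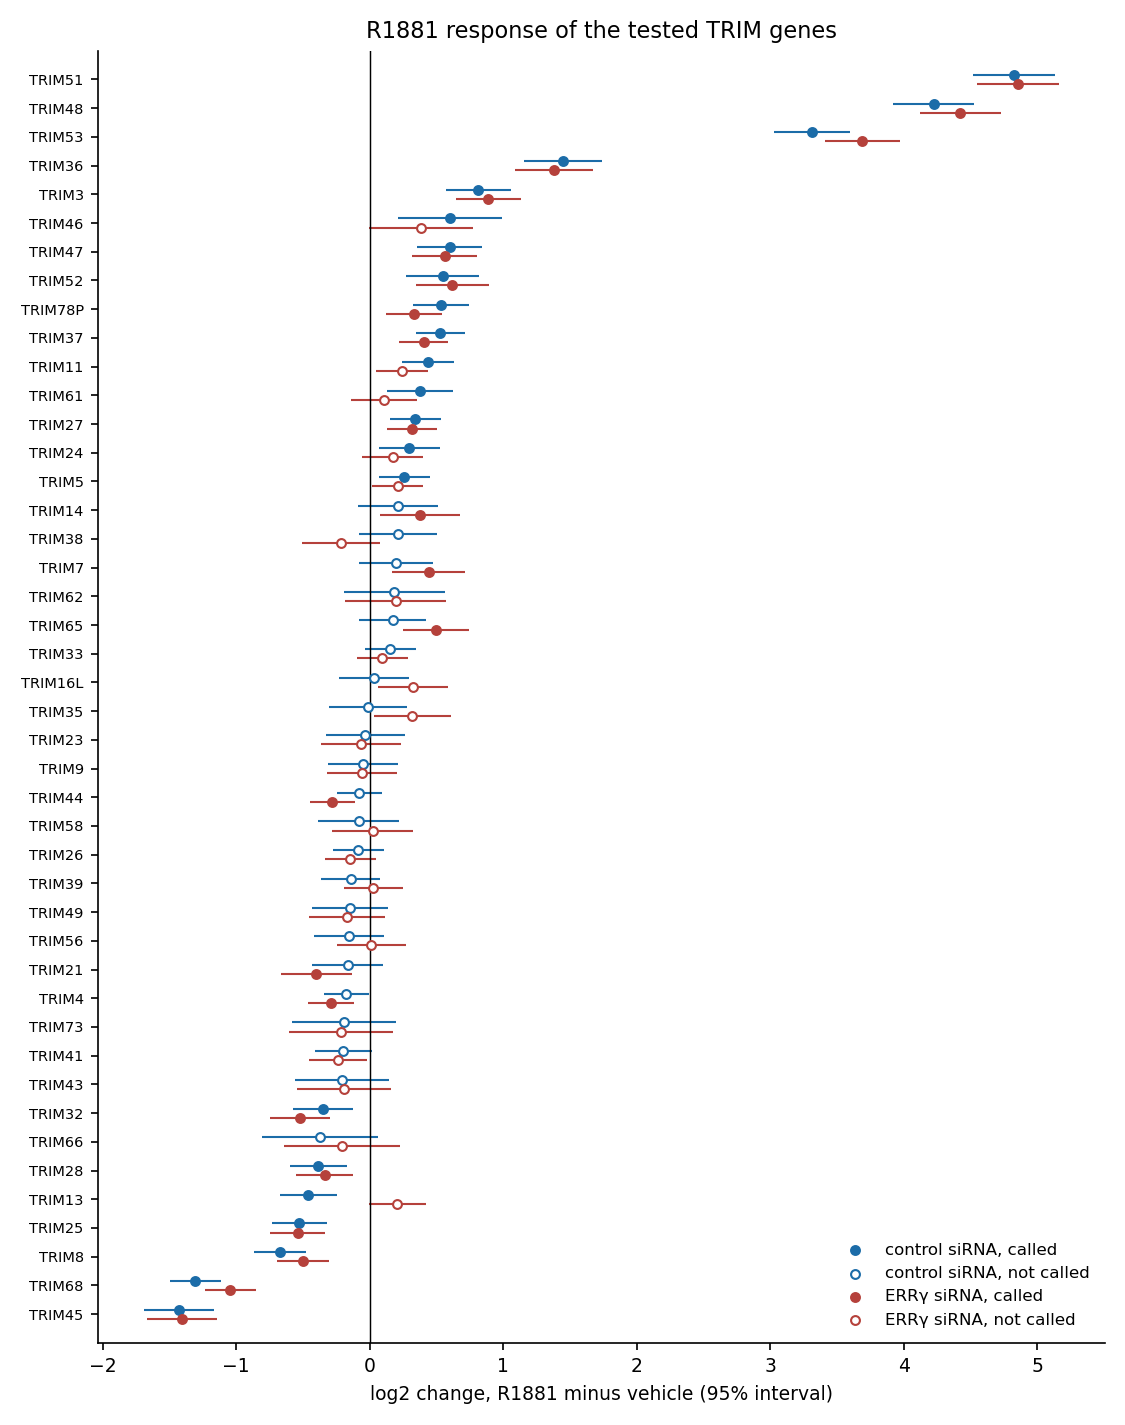
Log2 change with R1881 against vehicle for each of the 44 tested TRIM genes (rows, ordered by the change with control siRNA), with 95% intervals, for control siRNA and ERRγ siRNA. Filled points are called at an adjusted p under 0.05. TRIM51, TRIM48 and TRIM53 lie between 3.31 and 4.85, TRIM36 near 1.4, TRIM45 and TRIM68 below -1, and the other genes within 1 of zero.

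Members linked to the androgen receptor moved in different directions. TRIM68, an E3 ligase reported as a coactivator of the androgen receptor, fell. Its raw signals were 1548, 1353 and 1287 in vehicle and 586, 654 and 709.5 with R1881 under control siRNA, and 1133, 1158 and 1249 against 672, 726 and 755 under ERRγ siRNA. The treated arrays were all below the untreated ones. TRIM68 decreased by 1.31 ± 0.09 (2.47-fold, adjusted p = 4.85e-08) with control siRNA and by 1.04 ± 0.09 (2.06-fold, adjusted p = 5.14e-07) with ERRγ siRNA. The difference between the responses was 0.26 (95% interval -0.01 to 0.53) and was not called. Its probe had the highest mean signal among the members (9.75 on the log2 scale over 12 arrays), and that of TRIM49 the lowest (4.51). On that scale the means were 8.62 for TRIM28, 8.19 for TRIM33 and 7.48 for TRIM25, and such means of different probes are not comparable as levels.

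TRIM36, a COS-box protein that binds microtubules, rose. Its probe read 113, 101.6 and 94.7 in vehicle and 147, 161 and 143 with R1881 under control siRNA, and 111, 112 and 112 against 173, 166 and 171 under ERRγ siRNA. No treated array overlapped an untreated one. The rise was 1.45 ± 0.13 (2.73-fold, adjusted p = 1.18e-06) with control siRNA and 1.38 ± 0.13 (2.6-fold, adjusted p = 2.05e-06) with ERRγ siRNA. A second tested probe, paired with another RefSeq transcript of TRIM36, changed by -0.13 ± 0.16 and -0.04 ± 0.16 and was not called. Its raw signals stayed between 93.1 and 109 on all arrays.

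Among the other members of this group, TRIM25, an E3 ligase for the antiviral sensor RIG-I, fell by 0.53 ± 0.10 and 0.54 ± 0.10 with control and ERRγ siRNA (adjusted p = 0.000525 and 0.000464). TRIM28, the corepressor of KRAB zinc finger proteins, fell by 0.39 ± 0.10 and 0.34 ± 0.10. TRIM24, a chromatin reader and androgen receptor coactivator, rose by 0.30 ± 0.11 with control siRNA (adjusted p = 0.0378) and changed by 0.17 ± 0.11 with ERRγ siRNA (adjusted p = 0.231). Its call was lost when any of 5 arrays was left out (adjusted p of 0.0682 to 0.128), and that of TRIM28 with ERRγ siRNA when any of 3 was. TRIM33, which acts on SMAD signalling, changed by 0.15 ± 0.09 and 0.09 ± 0.09 on its brighter probe, not called, while its second probe rose by 0.41 ± 0.09 and 0.38 ± 0.09. In all, 2 of the 6 androgen-linked members were called higher and 3 lower with control siRNA, and 1 and 3 with ERRγ siRNA. The shares over all genes were 17.7% and 22.3%, and 16.7% and 20.4%. Of the 4 chromatin members with a PHD finger and bromodomain, TRIM66 changed by -0.37 ± 0.20 and -0.21 ± 0.20 and was not called.

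The NHL-repeat and filamin-repeat members split. TRIM45, which carries a filamin-type repeat and has been described as a repressor of MAP kinase signalling, read 236, 188 and 207 in vehicle and 131, 124 and 125 with R1881 under control siRNA. Under ERRγ siRNA it read 183, 192 and 219 in vehicle and 124, 126 and 126 with R1881. The groups did not overlap in either arm. TRIM45 fell by 1.43 ± 0.12 (2.69-fold, adjusted p = 4.92e-07) and by 1.41 ± 0.12 (2.65-fold, adjusted p = 5.75e-07), and the difference between these responses was 0.02 (-0.35 to 0.39). TRIM32, whose mutation causes a limb-girdle muscular dystrophy, fell by 0.35 ± 0.11 and 0.52 ± 0.11, and the call with control siRNA was lost when either of 2 arrays was left out (adjusted p of 0.0561 and 0.0785). TRIM3, a brain-enriched NHL-repeat protein, went the other way, from 128, 119 and 123 to 151, 158 and 169.6 under control siRNA and from 124, 122 and 135 to 176, 165 and 176 under ERRγ siRNA. It rose by 0.81 ± 0.11 (1.76-fold, adjusted p = 5.89e-05) and 0.89 ± 0.11 (1.85-fold, adjusted p = 2.8e-05).

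The remaining COS-box members were dimmer. TRIM46, which organises microtubules at the start of the axon, rose by 0.60 ± 0.18 (adjusted p = 0.0163) with control siRNA and changed by 0.38 ± 0.18 (adjusted p = 0.12) with ERRγ siRNA. One ERRγ siRNA array with R1881 read 127 where the other 2 read 110.5 and 109. In both arms the R1881 arrays of TRIM46 lay above its vehicle arrays, closely so under ERRγ siRNA. The TRIM46 call was lost when any of 3 arrays was left out (adjusted p of 0.0553 to 0.0691). The neuronal TRIM9 changed by -0.05 ± 0.12 and -0.06 ± 0.12. TRIM54, TRIM55, TRIM63 and TRIM67 were not tested.

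Outside these classes, TRIM8, a regulator of cytokine signalling that also stabilises p53, fell from 762, 685 and 677 to 498, 476 and 519 under control siRNA and from 626, 615 and 662 to 534, 526 and 537 under ERRγ siRNA. Its decreases were 0.67 ± 0.09 (adjusted p = 4.38e-05) and 0.50 ± 0.09 (adjusted p = 0.000547). TRIM47 rose by 0.60 ± 0.11 and 0.56 ± 0.11 and TRIM52 by 0.55 ± 0.13 and 0.62 ± 0.13. Rises under 1.5-fold with both siRNAs were seen for the pseudogene TRIM78P (0.54 and 0.33), for TRIM37, the gene mutated in mulibrey nanism (0.53 and 0.40), and for TRIM27 (0.34 and 0.32). TRIM11 rose by 0.44 and TRIM61 by 0.38 with control siRNA, and they changed by 0.24 and 0.11 with ERRγ siRNA, not called.

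**Figure D3:**
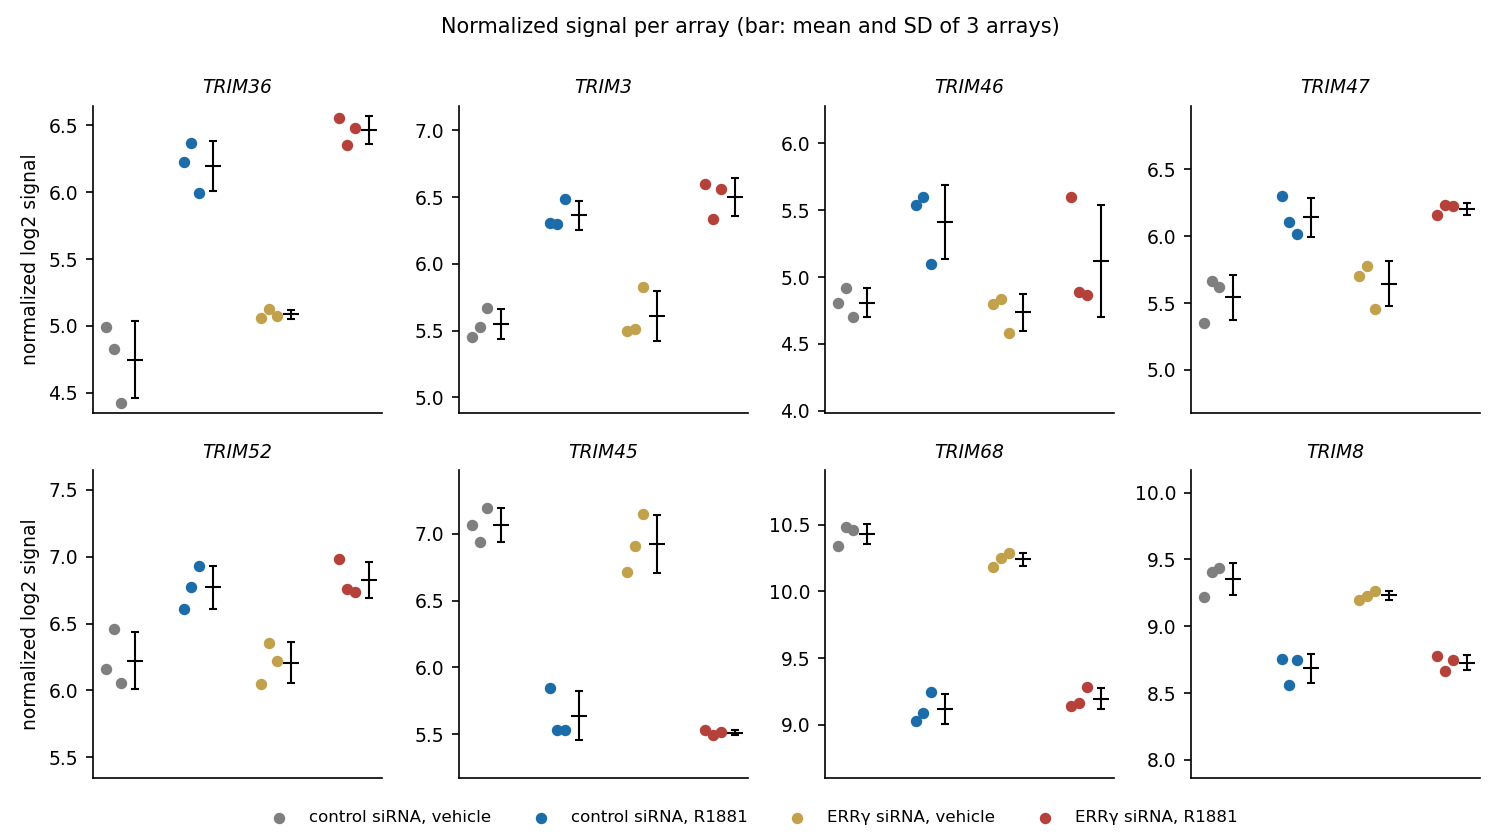
Normalized log2 signal on each array for TRIM36, TRIM3, TRIM46, TRIM47, TRIM52, TRIM45, TRIM68 and TRIM8, with 1 point per array and, beside each group, the mean and SD of its 3 arrays. All panels span the same log2 range around their own centre. For all 8 genes the vehicle and R1881 arrays do not overlap in either siRNA arm, with the narrowest gap for TRIM46 under ERRγ siRNA.

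Of the 12 tested antiviral and innate immune members, 2 were called higher and 2 lower with control siRNA, and 3 and 3 with ERRγ siRNA. Over all genes 40% and 37.1% were called. The largest change in the group was that of TRIM25. TRIM5, which restricts retroviral capsids, rose by 0.26 ± 0.09 (adjusted p = 0.0302) with control siRNA and changed by 0.21 ± 0.09 (adjusted p = 0.0802) with ERRγ siRNA. Leaving out any of 4 arrays ended the TRIM5 call (adjusted p of 0.0801 to 0.105), as any of 4 did for TRIM21 and any of 8 for TRIM14 with ERRγ siRNA. TRIM41 changed by -0.20 and -0.24 and TRIM26 by -0.08 and -0.15, none called. TRIM21, the cytosolic antibody receptor, changed by -0.16 with control siRNA, not called, and fell by 0.40 ± 0.12 with ERRγ siRNA. TRIM65, an E3 ligase for the sensor MDA5, changed by 0.17 with control siRNA, not called, and rose by 0.50 ± 0.12 with ERRγ siRNA (adjusted p = 0.0038).

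Of the 10 tested members on chromosome 11, 5 were called higher and 1 lower with control siRNA, and 4 and 3 with ERRγ siRNA. Over all genes 17.7% were called higher and 22.3% lower with control siRNA (40% in all). With ERRγ siRNA the shares were 16.7% and 20.4% (37.1% in all). The higher calls include TRIM48 and TRIM51, named from the start for their response, and TRIM53, whose probe had to differ. These counts are therefore a description. In the group around TRIM5, TRIM3 and TRIM68 moved in opposite directions. Of the 4 tested genes in or near the HLA region of chromosome 6, TRIM27, also known as the RET finger protein, was called, while TRIM26, TRIM38 and TRIM39 were not, with changes of -0.08, 0.21 and -0.14 under control siRNA.

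TRIM13, an E3 ligase of the endoplasmic reticulum membrane, was the member whose 2 arms differed most. The probe used for it read 311, 244 and 236 in vehicle and 216, 214 and 212 with R1881 under control siRNA, and 237, 211 and 211 against 259, 242 and 258 under ERRγ siRNA. The R1881 arrays were the lower ones with control siRNA and the higher ones with ERRγ siRNA, but on the normalized scale the ERRγ siRNA groups overlapped. It fell by 0.46 ± 0.10 with control siRNA (adjusted p = 0.00192) and changed by 0.21 ± 0.10 with ERRγ siRNA (adjusted p = 0.122). The difference of the responses was 0.67 (95% interval 0.37 to 0.97), with an unadjusted p of 0.000323 from the same limma fit and an adjusted p of 0.208. It was the lowest adjusted p for that difference among the members and was not called. It was called without the control siRNA R1881 replicate 1 (0.72, adjusted p = 0.0412). The gene's other 3 tested probes gave smaller differences of the responses, of 0.02, 0.30 and 0.15, and none of these differences was called. Their changes were 0.20, -0.10 and 0.33 with control siRNA and 0.22, 0.20 and 0.49 with ERRγ siRNA. The last of these probes was called higher with both siRNAs (adjusted p = 0.0218 and 0.0022, limma with every probe fitted). With control siRNA its sign was thus opposite to that of the probe used. This last probe was above background on 6 arrays only, those with R1881, and so had to come out higher. Among the 6 tested regulators of p53, a list that holds TRIM13, 1 was called higher and 4 lower with control siRNA, and 0 and 3 with ERRγ siRNA, beside 17.7% and 22.3%, and 16.7% and 20.4%, of all genes.

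Probes of the same gene could disagree elsewhere too. Of the 12 genes with more than 1 tested probe, the call differed between probes for 5 with control siRNA and for 7 with ERRγ siRNA, and the sign differed for 5 and 3. TRIM37 rose on the probe used (0.53 ± 0.09) while its second probe changed by 0.09 ± 0.16. TRIM5 rose on all 3 probes with control siRNA (0.26, 0.39 and 0.57). TRIM4, which ubiquitinates RIG-I, changed by -0.17 and 0.22 on its 2 probes with control siRNA, neither called, and by -0.29 (called) and -0.35 (not called) with ERRγ siRNA. TRIM14 rose by 0.38 with ERRγ siRNA on one probe, and the other changed by 0.05. TRIM39 and TRIM23 had probes of opposite sign, none of them called.

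**Figure D4:**
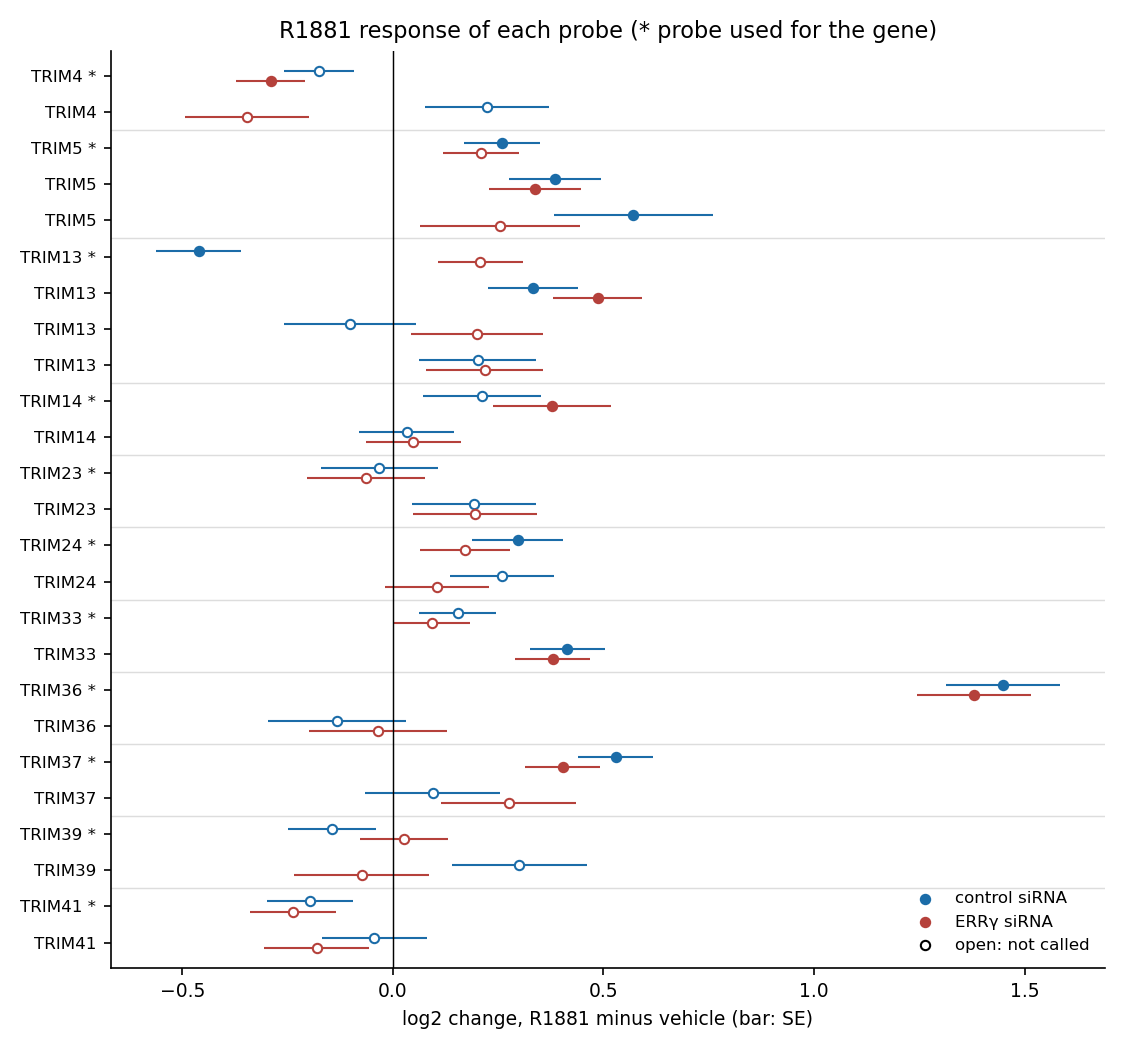
Log2 change with R1881 against vehicle for every tested probe of the 11 genes other than TRIM53 that have more than 1, with SE, for each siRNA. Filled points are called when all tested probes are fitted, and an asterisk marks the probe that stands for the gene. The probes of TRIM36 and of TRIM13 lie apart, while the 3 probes of TRIM5 lie between 0.21 and 0.57.

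Changes called with ERRγ siRNA alone were small for the remaining members: TRIM7, which binds glycogenin, rose by 0.44 ± 0.13, and TRIM44, which lacks a RING finger, fell by 0.28 ± 0.08. The 16 tested members called with neither siRNA ranged from -0.37 to 0.21 with control siRNA and from -0.24 to 0.32 with ERRγ siRNA. The median half-width of the 95% intervals over all genes was 0.253, which limits the size of change that could be told from 0.

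The ERRγ siRNA had no called effect on any of the 44 TRIM genes. In vehicle, where 0.269% of all genes were called (0.0175% higher and 0.251% lower, 0.0818% lower by at least 2-fold), 0 members were called by limma and 6 had an unadjusted p under 0.05, as 15.5% of all genes did. In R1881, where 0% of all genes were called, 0 members were called by limma and 7 had an unadjusted p under 0.05, against 6.12% of all genes. The log2 changes of the members lay between -0.38 and 0.34 in vehicle and between -0.34 and 0.37 in R1881. For TRIM51 they were 0.003 (95% interval -0.31 to 0.31) and 0.03 (-0.28 to 0.34), and for TRIM48 the change in R1881 was -0.07 (-0.37 to 0.24). In vehicle TRIM48 was not well above background with ERRγ siRNA, so no value is given. The probe used for TRIM5 was lower with the ERRγ siRNA in both media, by 0.29 ± 0.09 and 0.34 ± 0.09 as fitted. Its adjusted p-values from limma were 0.149 and 0.646, and it was not called. The other tested probes of TRIM5 changed by -0.05 and 0.11 in vehicle and by -0.10 and -0.21 in R1881, none called. TRIM9 showed -0.29 ± 0.12 in vehicle and -0.29 ± 0.12 in R1881, also not called. For the difference of the R1881 responses 0 members and 0% of all genes were called, and 2 members (TRIM13 and TRIM38) had an unadjusted p under 0.05, against 11.1% of all genes. Since ESRRG itself was at background in every group, these values do not bear on how far ERRγ was lowered.

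**Figure D5:**
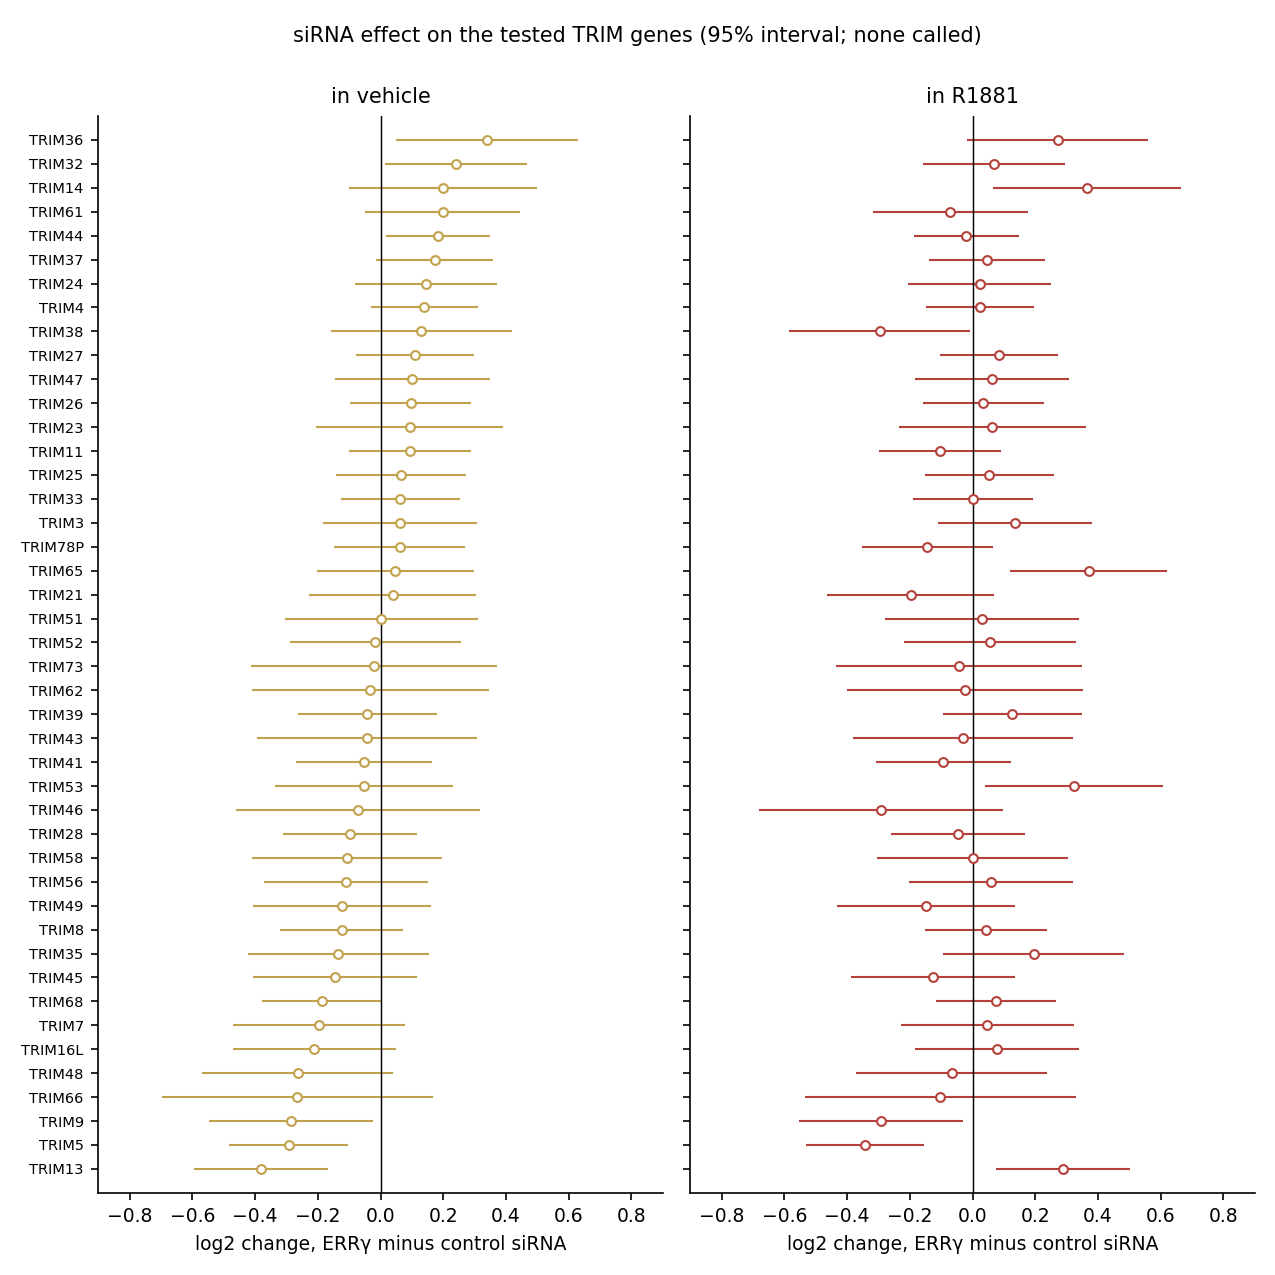
Log2 change with ERRγ siRNA against control siRNA for the 44 tested TRIM genes in vehicle (left) and in R1881 (right), with 95% intervals, ordered by the change in vehicle. No gene was called. All points lie between -0.38 and 0.37.

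TRIM proteins filed under other names, and the enzymes of ubiquitin transfer with their variants, were read beside the family. MID1, a microtubule-bound E3 ligase mutated in Opitz syndrome, had raw signals of 249, 204 and 197 in vehicle and 108, 106 and 104 with R1881 under control siRNA. The ERRγ siRNA arrays read 235, 195 and 225 without R1881 and 111, 106 and 111 with it. All R1881 arrays lay well below all vehicle arrays. MID1 fell by 2.30 ± 0.13 with control siRNA (4.93-fold, adjusted p = 5.68e-09). With ERRγ siRNA it fell by 2.27 ± 0.13 (4.83-fold, adjusted p = 6.97e-09). Its relative MID2 fell by 0.36 ± 0.09 with control siRNA and changed by -0.10 ± 0.09 with ERRγ siRNA. Of the 8 genes in this list 5 were tested, and 3 were called lower with control siRNA and 1 with ERRγ siRNA, beside 22.3% and 20.4% of all genes. Among the 8 tested ubiquitin-conjugating enzymes and enzyme variants known to work with RING ligases, 3 were called higher and 2 lower with control siRNA. Those higher were the variant UBE2V2 by 0.60, UBE2N by 0.31 and UBE2E1 by 0.28, and those lower were UBE2D2 by -0.53 and UBE2D4 by -0.35. With ERRγ siRNA, where 37.1% of all genes were called against 40% with control siRNA, none was called higher and 3 were called lower (UBE2D2 by -0.63, UBE2W by -0.36 and UBE2D4 by -0.29). The ubiquitin-activating enzymes UBA1 and UBA6 were not called with either siRNA.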

How the data were processed

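Per the file headers, the authors deposited a table of raw signals, which are intensities on a linear scale, with a detection p-value for each probe and array. The authors' second deposited table holds normalized values whose range is that of a log2 scale. The sources used here name neither the scanner nor the normalization method. Starting from the raw signals, limma's nec (offset 16), log2 and quantile normalization were applied, in that order, to all probes (R 4.3.3, limma 3.58.1). The 92 spike-in probes were left out afterwards, before testing. The filter asked for detection (p-value under 0.05) on 3 or more of 12 arrays and left 21959 probes. Probes were named through their RefSeq accession where it matched (28588 probes, 114 of the 131 TRIM probes) and otherwise by the table's symbol. Each gene was read from its probe with the highest mean signal.

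limma's lmFit and eBayes were fitted with 1 mean per group over all 12 arrays, and p-values were adjusted by Benjamini-Hochberg over 17121 genes. The code was tested on simulated data. Members, role lists and tests were chosen with earlier results of these data known. Genes reported with values were TRIM48 and TRIM51, called members past 2-fold (with every array) and past 1.5-fold, up to 4 of the brightest in each role list, the brightest and dimmest member, and members whose probes disagree. Further genes of the lists, MID1 and the conjugating enzymes with their variants among them, were named after their values were seen. Alternatives covered background, offset, normalization, the authors' table, the filter, the probe rule, the arrays fitted, a replicate block and leaving out each array. The number of arrays limits the precision.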

Additional observations from a re-analysis of the deposited data

Results flagged for a closer look

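Outside the naming rule, 42 probes carry a definition that names a tripartite motif protein, and 8 of these passed the filter on dim probes. Of these 8, 2 showed a response to R1881 of a size seen in TRIM48 and TRIM53, in data that the family counts do not use. The probe filed as LOC729384 is paired by its accession with TRIM49D2. With the processing used here it was at least 11.8-fold higher with R1881 under control siRNA and at least 11.7-fold higher under ERRγ siRNA. It was detected on all 6 R1881 arrays and on no vehicle array, so it passed the filter through the R1881 arrays alone and had to differ. Its fitted change of 3.85 with control siRNA is taken against a signal at background.

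The probe filed as LOC642362, defined in the deposited table as similar to TRIM39 and not matched to a current gene here, read 98.8, 99.9 and 99.1 in vehicle and 362, 372 and 314 with R1881 under control siRNA, and 106, 102 and 111 against 411, 375 and 358 under ERRγ siRNA. It rose by 3.44 ± 0.13 (10.8-fold) and 3.30 ± 0.13 (9.87-fold). TRIM39 itself changed by -0.14 and 0.03. LOC642362 has 2 further probes, which were detected on 1 array and on none. Which transcript this probe reads was not tested.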

How the results depend on the processing

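Over 56 gene changes (28 genes, each siRNA) no change that was called, with the settings reported or in the alternative, turned its direction. Where each probe was fitted on its own, only the probe standing for the gene was compared. In that fit another TRIM13 probe was called higher with control siRNA (0.33), while the probe standing for TRIM13 was called lower (-0.46). The uncalled change of TRIM4 with control siRNA turned to 0.02 when its probes were averaged. The filter asking for detection on all 12 arrays left 42 of the 56. TRIM51, TRIM48, TRIM53, TRIM36, TRIM3, TRIM45, TRIM68, TRIM8, TRIM47 and TRIM25 kept their calls with both siRNAs in every alternative that tested them. In the fit of each probe this holds for the probe standing for the gene, and the second tested TRIM36 probe was not called (-0.13 and -0.04). TRIM53 had to differ, as its probe passed the filter through its R1881 arrays alone. TRIM48 and TRIM51 were named from the start for their response. The kept calls of TRIM53, TRIM48 and TRIM51 are therefore a description. With control siRNA, the changes were smaller in the authors' table, at 1.73 for TRIM48, 0.90 for TRIM53, 0.29 for TRIM36 and -0.43 for TRIM45. The cause was not tested. Over the alternatives, the log2 change of TRIM51 ranged from 3.07 to 4.89 with control siRNA and from 3.11 to 4.96 with ERRγ siRNA. Its fold change thus depended on the processing too. The calls of TRIM14, TRIM5, TRIM24, TRIM46, TRIM61, TRIM28 and TRIM21, all with changes of 0.60 or less, were lost in several alternatives, and the call of TRIM13 with control siRNA was lost when its probes were averaged (-0.01, adjusted p = 0.961). An alternative also ended the calls of TRIM44 and TRIM4 with ERRγ siRNA (highest adjusted p of 0.387 and 0.723, limma). The same held for TRIM27 with control siRNA (0.0572). For R1881 the members called ranged from 17 to 27 with control siRNA and from 18 to 26 with ERRγ siRNA (the highest counts are of probes, with each probe fitted), and from 19 to 22 with either siRNA when 1 array was left out. The shares of all genes called under the alternatives are not given here, so these counts do not set the family against other genes. Single arrays also ended the calls of TRIM32 and TRIM61 with control siRNA (2 arrays each) and of TRIM78P (2), TRIM27 (1) and TRIM7 (1) with ERRγ siRNA, and TRIM11 was called there without either of 2 arrays.

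For the siRNA in vehicle, 2 members were called with no background correction (TRIM13 and TRIM5, both lower), 1 with an offset of 50 (TRIM13) and 1 in the authors' normalized table (TRIM44, higher). Here too, the shares of all genes called in each setting are not given, so these calls cannot be set against them. For the difference of the responses, 1 was called with an offset of 50 (TRIM13, adjusted p = 0.0489), and 0 to 1 when an array was left out: TRIM13 was called without the control siRNA R1881 replicate 1 (0.72, adjusted p = 0.0412). For the siRNA, 0 members were called when an array was left out, in vehicle or in R1881. Same-numbered arrays deviated together weakly at most (correlations of -0.12 to 0.127), so the numbers were not taken as pairs. Between the siRNAs in R1881 the correlations were 0.094, 0.127 and 0.018, and each control siRNA array was closest to the ERRγ siRNA array of its number. Between R1881 and vehicle no array was closest to that of its number. With the replicate number as a block, 22 and 21 members were called for R1881 with control and ERRγ siRNA and 0 for the siRNA and for the difference, and the TRIM14 call was lost.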
